A study of Mus musculus with 90 samples.

Results

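The livers described here came from 18 GR LKO mice on caloric restriction, which are the samples of the caloric restriction time series that carry the hepatocyte deletion of the glucocorticoid receptor (GR), out of 90 libraries in the whole series. GR LKO mice were GRfl/fl mice of the C57BL/6J strain with Cre under the Albumin promoter, so GR was deleted in hepatocytes while the other liver cells kept it. All were males, housed singly, fed chow and given their food at ZT12, with calories lowered stepwise to 40% less than control. Zeitgeber time (ZT) counts hours from lights on, with darkness from ZT12 to ZT24. The group held 3 mice at each of ZT0, ZT4, ZT8, ZT12, ZT16 and ZT20, and every library is a separate mouse. Other livers serve below only to show differences, namely 18 livers of WT mice (GRfl/fl without Cre) on the same diet at the same times, and 20 livers of GR LKO mice on the control diet (ctrl.), who had food through the night without a reduction in calories, with 3 or 4 mice per time. The labels give no age for the mice. The question was which transcripts follow a 24 h rhythm in a calorie-restricted liver without hepatocyte GR, when they peak and with what amplitude.

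The liver clock is a transcriptional loop in which BMAL1 (gene *Arntl*) with CLOCK or NPAS2 switches on the *Per* and *Cry* repressors and the *Nr1d* receptors, which in turn lower the activity or transcription of the activators. Meal times act on the liver as a strong timing signal beside this clock, through insulin, nutrients and temperature. GR is the nuclear receptor for corticosterone, a hormone with a daily peak around the start of activity, and in hepatocytes it acts on clock genes such as *Per1* and on enzymes of glucose and amino acid metabolism.

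The 18 libraries held 15712829 to 20293389 estimated counts (median 16918792), and the 10 most abundant genes took 20.4% to 25% of them. The WT libraries held 14235473 to 20788575 counts and the GR LKO ctrl. libraries 10057544 to 16066590. Levels are given as CPM (counts scaled to a common library size) after TMM scaling, as mean ± SD of 3 mice unless stated. Amplitudes are the distance from mean to peak of a 24 h cosine fitted to variance-stabilised values, which lie on a log2 scale, and peak times are those of the fitted cosine, given as ZT with the SE where one follows. On the first 2 principal components, which held 27.9% and 21.7% of the variance, the mice of a time point mostly lay together, but replicate 1 of ZT20 and replicate 1 of ZT0 lay closer to each other than to the mice of their own times.

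The deletion was visible in every mouse. *Nr3c1*, the gene of GR, lay between 21.6 and 32.2 CPM in the 18 GR LKO livers (median 25) and between 70.5 and 113 CPM in the 18 WT livers (median 94), so the groups did not overlap. Within GR LKO livers the remaining *Nr3c1* signal was 21.9 ± 0.396 CPM at ZT0 and 31.4 ± 0.735 CPM at ZT12. Its rank test passed (JTK_CYCLE adjusted p = 0.0136), but its amplitude was under the minimum, so it was not called rhythmic. Transcript from hepatocytes and from cells that kept GR cannot be told apart in these values.

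Hepatocyte markers dominated each library. The summed level of 7 hepatocyte genes lay between 99100 and 135000 CPM, with *Alb*, which encodes albumin, the most abundant, and 0 of the 7 were rhythmic by JTK_CYCLE (3 at an unadjusted p under 0.05, and 4 differed among times by edgeR). Markers of exocrine pancreas summed to at most 1.08 CPM, with *Cela2a* the most abundant and 6 of 10 at zero in all 18 livers. JTK_CYCLE called 0 of the 4 that could be tested, 0 of 8 Kupffer and myeloid markers (*Clec4f* the most abundant) and 0 of 6 erythrocyte markers (*Hbb-bs* the most abundant), with 1, 0 and 0 at an unadjusted p under 0.05. The edgeR test among times called 0 of the Kupffer and myeloid markers and 6 of the erythrocyte markers, and the exocrine ones were too low for it. The erythrocyte sum stood apart in 1 mouse at ZT0 (replicate 2, 3870 CPM against a median of 462). Leaving this mouse out gave 2916 rhythmic genes. In 1 mouse at ZT20 (replicate 1) the stellate markers summed to 485 CPM (median 230), the Kupffer and myeloid markers to 267 (median 147) and the cholangiocyte markers to 104 (median 56.4), the highest of the 18 livers in each case, and leaving it out gave 3076.

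A daily rhythm was common in these livers. JTK_CYCLE, a rank test for rhythms that uses an exact null distribution, called 3645 of 18932 genes (19.3%) at an adjusted p under 0.05 and a JTK amplitude above 0.1, and 5672 had an unadjusted p under 0.05. A further 106 genes passed the rank test but not the amplitude minimum. The count depended on the test, its null distribution and the minimum. The null used here allows for ties, which are different times with equal values of the reference cosine. With a null that ignores ties the rank test called 2999 genes. Tests of the 24 h cosine called 6105 genes with edgeR, 6159 with limma and 6782 with DESeq2, and an amplitude minimum of 0.5 left 677. A different question, whether a gene differed among the 6 times in any shape, was answered yes by the edgeR F test for 7716 of 12762 genes past the count filter (60.5%). Food came at ZT12 each day and a single day was sampled at 6 times, so a rhythm from feeding and a rhythm from the clock cannot be told apart.

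Most rhythms were shallow. The median amplitude of the 3645 genes was 0.34 on the log2 scale (quartiles 0.25 and 0.49, range 0.098 to 2.96), and the median fold between the highest and the lowest time was 1.93. Of the rhythmic genes 2767 (75.9%) had an amplitude under 0.5 and 159 had one over 1. The median SE was 0.06 for an amplitude and 0.67 h for a peak time, which is short beside the sampling interval of 4 h. Of the rhythmic genes 213 had a mean under 1 CPM and 26 read 0 in all mice of some time point.

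Peaks fell around the whole day. The fitted peak lay in the dark phase for 1845 genes (50.6%) and in the light phase for 1800 (49.4%). With the day cut into 6 windows of 4 h centred on the sampling times, the window at ZT8 held 710 genes (19.5%) and that at ZT4 held 523 (14.3%), the largest and the smallest of the 6. Median amplitude ran from 0.30 in the ZT4 window to 0.37 in the ZT20 window, and the ZT20 window also held the most genes with an amplitude over 1 (42, against 10 in the ZT4 window).

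**Figure D1:**
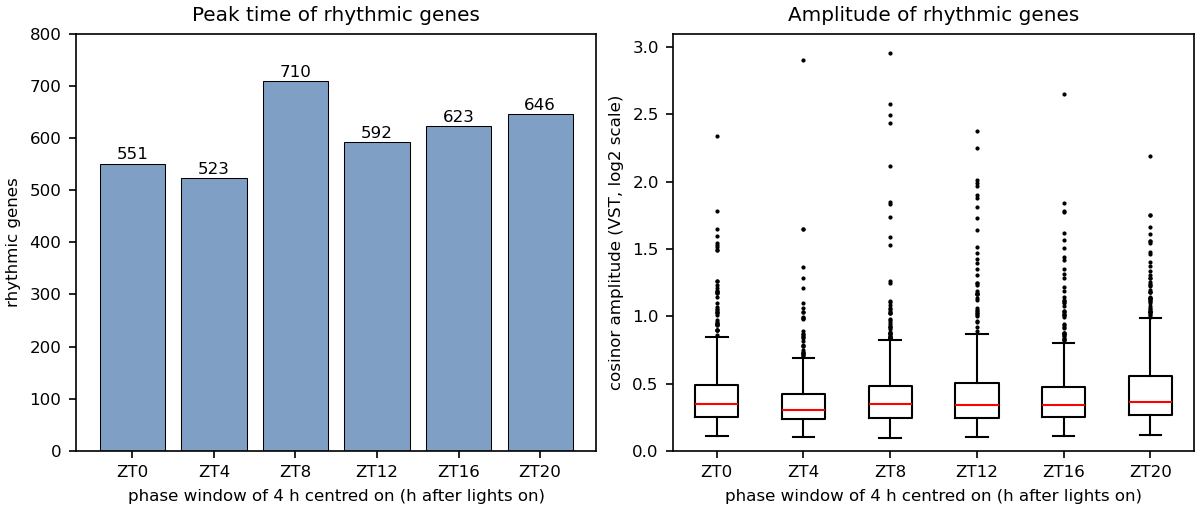
Left, number of rhythmic genes in GR LKO livers on caloric restriction by the 4 h window of their fitted peak, in hours after lights on. Right, their cosinor amplitudes on the log2 scale by window (box, quartiles; red line, median; whiskers, 1.5 interquartile ranges; points, genes beyond), where every median lies between 0.30 and 0.37.

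The clock was strongly rhythmic without hepatocyte GR. Of 18 core clock genes, 13 were rhythmic and 17 differed among the times by the edgeR test, with a median amplitude over the 18 of 1.17 against 0.14 over all 18932 genes. Of 9 transcription factors that carry clock output, 8 were rhythmic, with a median amplitude of 0.88. Listed genes are on the whole well expressed, and among the 12762 genes past the count filter 28.1% were rhythmic with a median amplitude of 0.20. The 26 lists used here hold 685 distinct genes. Clock peaks ran from the activators late at night through *Nr1d1*, *Dbp* and the *Per* genes to *Cry1*.

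*Arntl* and *Npas2* were high at the end of the night and nearly absent at ZT8. *Arntl* read 26, 29.4 and 26.6 CPM in the 3 mice at ZT20 and 0, 0.531 and 0 CPM at ZT8, and its fitted peak was ZT20.7 ± 0.32 (amplitude 2.19 ± 0.18, adjusted p = 0.000373 by JTK_CYCLE). *Npas2*, the alternative partner of BMAL1, read 16.2, 12.6 and 13.9 CPM at ZT0 and 0.285, 0.159 and 0.116 CPM at ZT8, with its peak at ZT22.2 ± 0.19. In both genes the mice at the high and the low time did not overlap. *Clock* itself was not called rhythmic (adjusted p = 0.296 by JTK_CYCLE), with 27.7 ± 1.68 CPM at ZT16 and 6.07 ± 2.42 CPM at ZT8, although the edgeR test among times passed (adjusted p = 0.000874).

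*Nr1d1*, a repressor of *Arntl* known as REV-ERBα, had the second largest amplitude among the genes named here, 2.90 ± 0.21. The mice read 223, 213 and 159.7 CPM at ZT4 and 2.37, 1.07 and 1.94 CPM at ZT16, which is its collapse within 12 h. Its relative *Nr1d2* peaked later, at ZT7.64 ± 0.33, and *Bhlhe41*, another repressor of the loop, at ZT7.26 ± 0.63. *Dbp*, a clock-driven activator that binds D-boxes, read 55, 47.5 and 50.1 CPM at ZT8 and 0.369, 0.275 and 0.277 CPM at ZT0, with an amplitude of 2.50 ± 0.22. The related *Tef* peaked at ZT9.68 ± 0.29 and *Hlf* at ZT11.4 ± 0.69, the latter with an amplitude of only 0.42.

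The period genes spanned the light to dark transition. *Per3* and *Per1* peaked at ZT10 ± 0.36 and ZT10.1 ± 0.32, with the repressor *Ciart* at ZT9.34 ± 0.34 and *Bhlhe40* at ZT10.4 ± 0.55. *Per1* read 58.2, 43.6 and 58.6 CPM at ZT8 and 2.06, 1.87 and 1.55 CPM at ZT0. *Per2* stayed high from ZT8 to ZT16, with 72.3, 102 and 83.7 CPM at ZT16, and fell to 18.4 ± 5.71 CPM at ZT20. *Cry2* had a shallow rhythm (amplitude 0.49, peak ZT9.69), whereas *Cry1*, the later repressor, peaked at ZT17.4 ± 0.27 with 43, 42.2 and 47.1 CPM at ZT16.

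The night was marked by *Nfil3*, a repressor at D-boxes, at ZT18.8 ± 0.64. Among Krüppel-like factors, *Klf9* led at ZT4.6 ± 0.45, followed by *Klf13* at ZT8.59, *Klf10* at ZT8.8 and *Klf15* at ZT9.61. *Klf10* rose from 0.575 ± 0.502 CPM at ZT20 to 32 ± 10.6 CPM at ZT8. Of the clock genes not called, *Csnk1d*, a kinase of PER proteins, passed the rank test (adjusted p = 0.0293 by JTK_CYCLE) without the amplitude. *Rora*, *Csnk1e* and *Klf11* did not pass it.

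**Figure D2:**
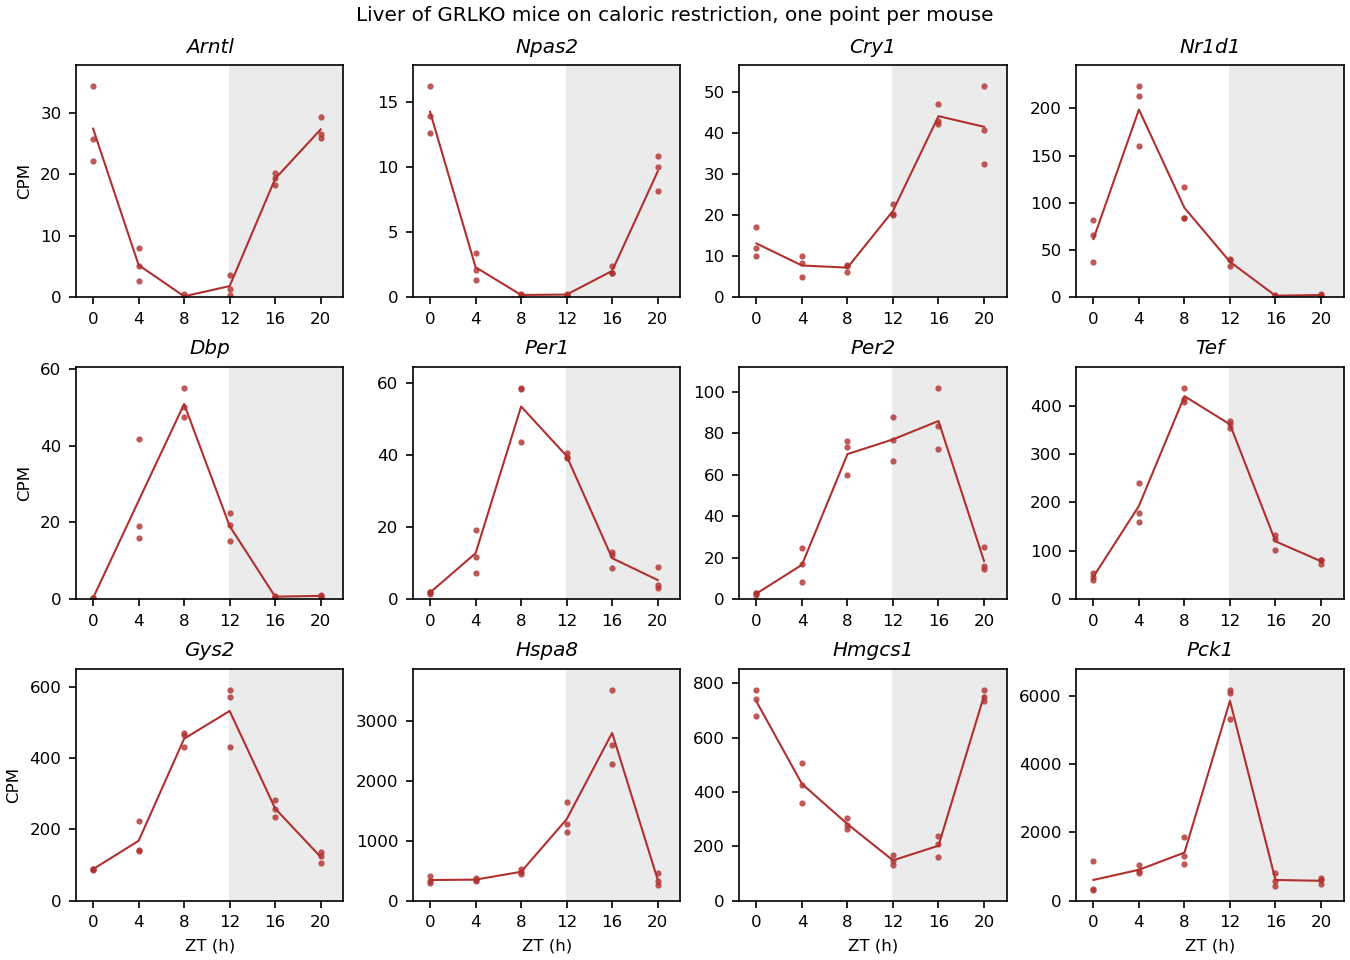
CPM of 12 genes in GR LKO livers on caloric restriction against ZT in hours (points, single mice; line, mean of 3 mice; shading, dark phase). *Arntl*, *Npas2* and *Hmgcs1* are high around ZT20 to ZT0, *Dbp*, *Per1* and *Tef* around ZT8, *Pck1* at ZT12 and *Hspa8* at ZT12 and ZT16.

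Promoter sequences of some of these genes are shown because they hold known motifs of the clock, and their peaks lay between ZT7.26 and ZT18.8. The windows come from RefSeq on build GRCm38.p6, and motifs were searched on both strands in the 250 bases before the gene start of 27025 promoters. The E-box CACGTG, bound by BMAL1 with its partners, was present in 6.05% of all promoters, the D-box TTATGTAA in 0.862% and the ROR element TAGGTCA in 2.27%. Among the promoters found for the clock lists, 4 of 13 core clock and 3 of 8 clock output promoters held an E-box. One of the latter was that of *Klf11*, which was not called rhythmic and is not shown. A match is a description of the letters. A promoter was found for 2888 of the 3645 rhythmic genes (79.2%), under the 80% set for comparing motif shares between peak times, so no such comparison is given. Capitals mark the E-box in *Per1* (chr11:69098743-69098828, strand plus), *Cry1* (chr10:85185069-85185154, strand minus), *Ciart* (chr3:95882229-95882384, strand minus, 3 matches), *Tef* (chr15:81802506-81802591, strand plus), *Klf15* (chr6:90462326-90462449, strand plus, 2 matches) and *Bhlhe41* (chr6:145865528-145865613, strand minus). They mark the D-box in *Per3* (chr4:151044776-151044910, strand minus, 2 matches) and the ROR element, read on the other strand, in *Nfil3* (chr13:52981040-52981091, strand minus).
Per1: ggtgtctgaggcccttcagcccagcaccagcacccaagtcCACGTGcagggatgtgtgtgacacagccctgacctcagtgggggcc
Cry1: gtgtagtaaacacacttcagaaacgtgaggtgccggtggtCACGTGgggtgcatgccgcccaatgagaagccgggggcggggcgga
Ciart: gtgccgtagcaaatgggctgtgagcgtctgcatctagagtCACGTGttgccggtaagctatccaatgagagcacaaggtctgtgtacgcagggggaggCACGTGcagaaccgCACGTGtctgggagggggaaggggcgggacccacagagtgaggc
Tef: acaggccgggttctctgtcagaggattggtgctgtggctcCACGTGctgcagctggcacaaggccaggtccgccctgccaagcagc
Klf15: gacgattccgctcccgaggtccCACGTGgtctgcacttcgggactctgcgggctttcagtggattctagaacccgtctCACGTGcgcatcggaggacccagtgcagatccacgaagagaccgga
Bhlhe41: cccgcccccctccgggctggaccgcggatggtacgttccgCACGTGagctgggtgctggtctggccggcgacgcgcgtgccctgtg
Per3: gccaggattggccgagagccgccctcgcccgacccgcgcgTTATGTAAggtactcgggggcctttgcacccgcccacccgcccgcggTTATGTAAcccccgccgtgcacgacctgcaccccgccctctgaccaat
Nfil3: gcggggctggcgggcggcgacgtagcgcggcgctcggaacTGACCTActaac

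Cholesterol synthesis peaked at the end of the night. Of 25 genes of cholesterol synthesis and uptake, 14 were rhythmic, 10 of them in the window from ZT22 to ZT2 and 3 in the one before, with a median amplitude of 0.46 over the list. *Hmgcs1*, which makes HMG-CoA for sterol synthesis, read 681, 776 and 742 CPM at ZT0 and 130.3, 148 and 169 CPM at ZT12, and its peak was ZT23.7 ± 0.38. *Fdps*, *Dhcr7* and *Sqle*, further enzymes of the pathway, peaked at ZT22.2, ZT21.7 and ZT21.6, each with its lowest mean at ZT12.

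Other functions shared this window. The fibrinogen chains *Fga* and *Fgg* peaked at ZT0.93 and ZT0.56, with 3166 ± 37.8 CPM of *Fgg* at ZT0 and 1601 ± 181 CPM at ZT12, among 10 rhythmic of 25 acute phase and iron genes (median amplitude 0.34). *Hsd3b7*, an early enzyme of bile acid synthesis, read 700.5, 654 and 687 CPM at ZT0 and 98.6, 127 and 122 CPM at ZT12. *Cbs*, which starts the conversion of homocysteine to cysteine, peaked at ZT23.9 and *Crot*, a peroxisomal carnitine acyltransferase, at ZT22.9. Most rhythmic genes of their lists peaked at other times. This window held 2 of 11 for bile acids, 1 of 13 for amino acid catabolism and the urea cycle, and 1 of 14 for fatty acid oxidation and ketogenesis. Of the 5 genes with the largest amplitudes in the window, *Asap2* (1.53 ± 0.11), *Spon2* (1.54 ± 0.21) and *Camk1d*, a calcium-dependent kinase (1.60 ± 0.24), were high at ZT0 in all 3 mice. *Elovl3*, a clock-linked fatty acid elongase, and *Selenbp2* were uneven between mice at the same time, with 137, 24.8 and 13.7 CPM of *Elovl3* at ZT0 and 49.5, 16.3 and 164 CPM at ZT20. *Selenbp2* has a near-identical relative, so its assignment is uncertain.

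Some markers of other cells were also highest around the end of the night. The rhythmic ones among them were *Sox9* (1 of 5 cholangiocyte markers, of which *Spp1* was the most abundant), *Col3a1* (1 of 6 stellate markers, *Dcn* the most abundant), *Cd79a* and *Ms4a1* (2 of 6 lymphocyte markers, *Cd79a* the most abundant), *S100a8* and *S100a9* (2 of 5 neutrophil markers, *S100a9* the most abundant) and *Car3* (1 of 6 adipocyte markers). The adipocyte markers *Lep* and *Plin1* were at zero in all 18 livers, and hepatocytes also express *Car3*. Lymphocyte markers summed to a mean of 6.32 CPM at ZT0, 0.829 at ZT12 and 3.99 at ZT20, over a range of 0.577 to 8.28 with a median of 1.85. Stellate markers summed to 276 CPM at ZT0, 192 at ZT16 and 349 at ZT20, over a range of 171 to 485. Cholangiocyte sums ran from 31.5 to 104 CPM with the lowest mean at ZT12 (32.0), and neutrophil sums from 0 to 3.57 (median 1.01), also lowest at ZT12. The sum of adipocyte markers was carried by *Car3* (mean 3696 CPM, against 0.807 for *Cfd*, the next), so it does not measure adipocytes. The part of other cells in the genes that peaked in the ZT20 and ZT0 windows was not tested, and more cells of a type or more RNA per cell cannot be told apart in bulk tissue. Endothelial markers summed to 168 to 239 CPM (median 203), with *Kdr*, the most abundant, and *Cdh5* rhythmic (2 of 6).

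Some autophagy genes peaked early. Of 35 autophagy and lysosome genes, 13 were rhythmic (37.1%, against 28.1% of the genes past the count filter), 6 of them in the window from ZT2 to ZT6, 2 in the one before, 3 in the one after and 2 from ZT14 to ZT18, with a median amplitude of 0.18 over the list. *Wipi1*, a protein of the forming autophagosome, and *Ulk1*, the kinase that starts autophagy, peaked at ZT4.1 ± 0.55 and ZT5.72 ± 0.92. Both were lowest at ZT16, *Ulk1* with 25.9, 18.8 and 22.3 CPM against 98.7, 65.3 and 82.8 CPM at ZT8. *Gabarapl1*, which coats autophagosomes, read 495 ± 13.6 CPM at ZT8 and 174 ± 17.5 CPM at ZT16, and *Bnip3*, a receptor for mitophagy, peaked later, at ZT9.79. The lysosomal protein *Lamp1* was not rhythmic, at 518 to 651 CPM.

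Single genes of several other lists peaked in the early light phase. *Cdo1*, which degrades cysteine, peaked at ZT4.54 ± 0.31 with 1874 ± 76.3 CPM at ZT4. It was one of 13 rhythmic among 38 genes of amino acid catabolism and the urea cycle (34.2%, median amplitude 0.22). Of these 13, 3 peaked from ZT2 to ZT6, and each of the 6 windows held at least 1. Of the genes past the count filter 28.1% were rhythmic. *Trib3*, a stress-induced pseudokinase, peaked at ZT5.28, one of 6 rhythmic among 19 genes of amino acid stress and serine synthesis (31.6%, near that 28.1%, median amplitude 0.23). Of these 6, 2 peaked from ZT2 to ZT6. *Socs2*, an inhibitor of growth hormone signalling, peaked at ZT2.81, and *Phka2*, a subunit of phosphorylase kinase, at ZT5.15. *Socs2* was the only 1 of 8 rhythmic insulin and growth factor genes in this window. *Arrdc3*, an arrestin-like protein (1.65 ± 0.24), *Fbxo21* (1.29 ± 0.17) and *Med25*, a Mediator subunit (1.65 ± 0.30), had amplitudes among the 5 largest in this window together with *Nr1d1* and *Abcg8*. *Arrdc3* read 551, 523 and 260.4 CPM at ZT4 and 28.7, 23.6 and 39.1 CPM at ZT16, without overlap. *Junb*, at ZT6.16, and *Ier3* were the 2 rhythmic genes among 15 tested immediate early and Id genes (13.3%, against the same 28.1%, median amplitude 0.27).

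Some transporters of sterols and organic anions peaked in the middle of the light phase. Of 22 bile acid genes, 11 were rhythmic, 5 of them in the window from ZT6 to ZT10 and the others spread over 4 windows, with a median amplitude of 0.48. *Abcg5* and *Abcg8*, the 2 subunits of the transporter that moves sterols into bile, peaked at ZT6.79 ± 0.45 and ZT5.72 ± 0.52. *Abcg5* read 219, 159 and 195 CPM at ZT8 and 23, 32.1 and 45.8 CPM at ZT16, and the mice did not overlap. *Slco1a4*, an uptake transporter for organic anions, read 531 ± 54.3 CPM at ZT8 and 172 ± 48.6 CPM at ZT20. *Slc10a1*, the main sodium-dependent bile acid importer, was not called rhythmic (adjusted p = 0.14 by JTK_CYCLE).

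Some genes of fatty acid oxidation peaked in this window and others after the meal. Of 29 genes of fatty acid oxidation and ketogenesis, 14 were rhythmic, 6 of them from ZT6 to ZT10 and 5 from ZT14 to ZT18, with a median amplitude of 0.18. *Ppara*, the receptor that drives these genes in fasting, peaked at ZT9.75 ± 0.43 and read 215 ± 11.5 CPM at ZT12 and 76.3 ± 2.38 CPM at ZT0. *Cpt1a*, the gate for fatty acids into mitochondria, read 668 ± 61 CPM at ZT12 and 279 ± 63.5 CPM at ZT16. *Crat*, a carnitine acetyltransferase, belonged to the later set, at ZT16.4. Of 61 oxidative phosphorylation genes, 10 were rhythmic (16.4%, against 28.1% of the genes past the count filter), 5 of them at ZT6 to ZT10. The median amplitude was 0.11, with *Ndufs7* the deepest at 0.32. *Atp5b* passed the rank test (adjusted p = 0.0107 by JTK_CYCLE) but not the amplitude.

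Other deep rhythms of this window, beside that of *Dbp*, belonged to varied functions. *Rgs16*, a regulator of G protein signalling, had the largest amplitude of the rhythmic genes named here, 2.96 ± 0.30, and read 189, 127 and 192 CPM at ZT8 and 0.982, 0.595 and 0.689 CPM at ZT16. At ZT4 its mice were far apart, at 201, 56.7 and 22.4 CPM. *Cyp2a4* (2.58), a steroid hydroxylase, and *Cyp2c40* (2.44) are members of families with near-identical copies, so their assignment is uncertain. *Hook2*, a linker of dynein to its cargo, read 0 in all 3 mice at ZT16 and 43.8, 22.6 and 24.9 CPM at ZT8, and a count of 0 allows up to 3 counts in a library. *Slc2a2*, the glucose transporter GLUT2, was rhythmic with tight replicates, at 712 ± 27.9 CPM at ZT8 and 252 ± 30.6 CPM at ZT20. *Pdk1*, a kinase that shuts off pyruvate dehydrogenase, peaked at ZT9.64.

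Drug and heme metabolism peaked before and around the meal. Of 27 genes of xenobiotic and heme metabolism, 18 were rhythmic, with 6 peaks from ZT6 to ZT10, 10 from ZT10 to ZT14 and 2 later, and a median amplitude of 0.40. *Alas1*, the rate-limiting enzyme of heme synthesis, read 529, 447 and 520.3 CPM at ZT8, 578, 471 and 401 CPM at ZT12 and 29.6, 49.4 and 49.3 CPM at ZT0, with a peak at ZT11.2 ± 0.29. *Por*, the electron donor of the cytochromes P450, peaked at ZT9.13 ± 0.4 and read 610 ± 66.2 CPM at ZT12. *Cyp2a5*, which shares much sequence with *Cyp2a4*, peaked at ZT10.4 and *Fmo5*, a flavin monooxygenase, at ZT14.7. *Cyp2c29* was not rhythmic, at 892 to 1178 CPM.

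Some glycogen and glucose genes peaked around the same time. Of 12 glycogen genes, 8 were rhythmic, with 1, 2, 1, 3 and 1 peaks in the windows at ZT0, ZT4, ZT8, ZT12 and ZT16 (median amplitude 0.33). *Gys2*, liver glycogen synthase, read 591, 572 and 432 CPM at ZT12 and 86.8, 89.8 and 89.6 CPM at ZT0, with its peak at ZT11 ± 0.21, and *Ugp2*, which makes UDP-glucose, peaked at ZT10.1 ± 0.22. *Ppp1r3b*, the subunit that brings a phosphatase to glycogen, came after the meal, at ZT17.7 ± 0.39, with 473, 384 and 548 CPM at ZT16 and 46.7, 64 and 35.9 CPM at ZT8. Of 16 gluconeogenesis genes, 5 were rhythmic (31.2%, near the 28.1% of the genes past the count filter, median amplitude 0.36). Of these 5, 4 peaked at ZT10 to ZT14. They included *Sik1*, a kinase induced by cAMP, at ZT12.6 ± 0.49 with 80.8 ± 8 CPM at ZT12, and *Slc37a4*, the glucose-6-phosphate carrier of the endoplasmic reticulum, at ZT11.1. Of 20 glycolysis and pyruvate dehydrogenase kinase genes, 11 were rhythmic, with 3, 3, 2 and 3 peaks in the windows at ZT8, ZT12, ZT16 and ZT20 (median amplitude 0.30), among them *Pklr*, liver pyruvate kinase, at ZT11.8 ± 0.66, whereas *Gapdh* was not.

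NAD genes and signalling genes also had members here. Of 17 NAD and sirtuin genes, 9 were rhythmic (median amplitude 0.22). *Nampt*, the rate-limiting enzyme of NAD salvage, read 192, 193 and 200.5 CPM at ZT12 and 43.5, 48.5 and 50.1 CPM at ZT0, with its peak at ZT13.3 ± 0.21, and *Nmrk1*, a kinase for nicotinamide riboside, peaked at ZT11.4. *Nnmt*, which methylates nicotinamide, peaked at ZT15.6, and *Sirt3*, the mitochondrial deacetylase, at ZT9.29. Of 27 insulin and growth factor genes, 8 were rhythmic (29.6%, near the 28.1% of the genes past the count filter, median amplitude 0.29). Among them were *Foxo3* at ZT10.8 and *Pik3r1*, the regulatory subunit of PI3 kinase, at ZT14.2. *Wee1*, a clock-driven kinase that holds back mitosis, read 41.4 ± 2.64 CPM at ZT8 and 5.04 ± 1.39 CPM at ZT0. It was one of 5 rhythmic among 24 cell cycle genes (20.8%, against the same 28.1%, median amplitude 0.32). *Usp2*, a deubiquitinase with a clock-driven transcript, peaked at ZT11.2 ± 0.29 with an amplitude of 2.25. *Mfsd2a*, a lysolipid transporter induced by fasting, read 67.6, 81.2 and 91.2 CPM at ZT12 and 1.63, 2.31 and 7.2 CPM at ZT0.

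Heat shock genes stood out 4 h after the meal. Of 22 heat shock and temperature genes, 16 were rhythmic, 12 of them in the window from ZT14 to ZT18, and the median amplitude over the list was 0.70. *Hspa8*, the constitutive chaperone HSC70, read 2587, 3514 and 2286 CPM at ZT16 against 257, 333 and 472 CPM at ZT20. *Hsp90aa1*, the inducible HSP90, read 802, 704 and 778 CPM at ZT16 and 53.7, 59.6 and 59.9 CPM at ZT8, without overlap (peak ZT16.9 ± 0.49, amplitude 1.62 ± 0.21). *Hspb1*, a small heat shock protein, peaked at ZT16.7 and *Hsph1*, an HSP70 exchange factor, at ZT16.5, with 0 in all 3 mice at ZT8 and 40.5 ± 0.443 CPM at ZT16. The 2 cold-induced members peaked in the light phase, *Cirbp* at ZT3.57 and *Rbm3* at ZT8.59. *Hspa4* was not called by the rank test, though its mean was 217 ± 11.1 CPM at ZT16 and 90.4 ± 4.02 CPM at ZT0 and the edgeR test among times passed (adjusted p = 1.74e-06). *Hspa1a* and *Hspa1b* are near-identical copies that short reads hardly separate.

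Promoters of 4 of these heat shock genes are shown with the core GAANNTTC of the heat shock element in capitals, which 6.78% of the 27025 promoters held. Of the 17 promoters found for the heat shock list, 6 held the core, so most did not. A link between the core and the peak time was not tested. They are those of *Hspb1* (chr5:135887762-135887869, strand plus, 2 matches), *Fkbp4* (chr6:128438760-128438847, strand minus), *Dnaja1* (chr4:40722304-40722391, strand plus) and *Hspe1* (chr1:55088024-55088111, strand plus). *Fkbp4* and *Dnaja1* encode cochaperones of HSP90 and HSP70, and *Hspe1* the mitochondrial HSP10. Their transcripts peaked at ZT16.7, ZT16.5, ZT14.1 and ZT16.9. The build and source are as above.
Hspb1: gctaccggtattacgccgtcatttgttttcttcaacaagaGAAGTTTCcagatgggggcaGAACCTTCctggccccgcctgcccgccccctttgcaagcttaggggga
Fkbp4: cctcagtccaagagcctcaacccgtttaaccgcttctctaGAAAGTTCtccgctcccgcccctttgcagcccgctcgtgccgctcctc
Dnaja1: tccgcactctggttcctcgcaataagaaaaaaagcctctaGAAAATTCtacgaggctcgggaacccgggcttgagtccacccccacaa
Hspe1: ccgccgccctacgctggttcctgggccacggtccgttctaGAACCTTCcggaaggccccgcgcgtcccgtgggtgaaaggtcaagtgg

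Rhythmic genes of protein folding in the endoplasmic reticulum (ER) mostly peaked with and after the heat shock genes. Of 27 ER folding and stress genes, 15 were rhythmic, 1 of them from ZT6 to ZT10, 2 from ZT10 to ZT14, 7 from ZT14 to ZT18 and 5 from ZT18 to ZT22, with a median amplitude of 0.38. *Creld2*, an ER stress protein, read 67.6, 96.2 and 43.7 CPM at ZT16 and 7.06, 7.86 and 7.53 CPM at ZT0, and *Sdf2l1*, a chaperone partner, peaked at ZT19.3 ± 0.53. *Calr*, the lectin chaperone calreticulin, read 616 ± 87.4 CPM at ZT20 and 218 ± 12.8 CPM at ZT12. *Herpud1*, a part of ER-associated degradation, peaked apart from them at ZT9.14 ± 0.4. *Edem1*, which directs misfolded glycoproteins to degradation, was not rhythmic (adjusted p = 0.248 by JTK_CYCLE).

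Few cytosolic ribosome genes were rhythmic, and their amplitudes were small. Of 76 cytosolic ribosome genes, 3 were rhythmic (*Rpl13a*, *Rpl21* and *Rpl9*, with amplitudes of 0.26, 0.13 and 0.12, all peaking from ZT14 to ZT18). The median amplitude over the 76 was 0.10, below the 0.14 of all genes. By edgeR 36 of the 76 differed among the times, a smaller share than the 60.5% of all genes past the count filter. Of 39 ribosome biogenesis genes, 8 were rhythmic (20.5%, against 28.1% of the genes past the count filter, median amplitude 0.23). By edgeR 34 of the 37 tested differed among the times. *Tsr1*, a ribosome assembly factor, read 34.7, 61 and 44.9 CPM at ZT16 and 10.3, 10.9 and 10.9 CPM at ZT8, and *Rrp12*, another assembly factor, peaked at ZT16.4. *Ncl*, nucleolin, had a shallower rhythm with 70 ± 2.17 CPM at ZT16.

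Other genes with a deep rhythm in this window belong to different functions. *Tfrc*, the transferrin receptor for iron uptake, read 185, 170.5 and 220.4 CPM at ZT16 and 11.6, 15.5 and 17.5 CPM at ZT4, with an amplitude of 1.84 ± 0.12. *Tsku*, a secreted protein of the liver, read 63.5 ± 7.14 CPM at ZT16 and 1.78 ± 1.58 CPM at ZT4. *Gm12191*, a gene model, was high at ZT12 (70.8, 44.3 and 71.3 CPM) and ZT16 and near zero at ZT4. The libraries are unstranded, so a gene and one that overlaps it on the other strand cannot be told apart. Whether another gene overlaps *Gm12191* was not tested, and the source of its reads is uncertain.

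Lipid synthesis was spread over the night. Of 21 genes of fatty acid and triglyceride synthesis, 12 were rhythmic, with 3 peaks at ZT10 to ZT14, 2 at ZT14 to ZT18, 4 at ZT18 to ZT22 and 3 at ZT22 to ZT2, none from ZT2 to ZT10, and a median amplitude of 0.49. *Thrsp*, a regulator of lipogenesis, read 592, 657 and 470 CPM at ZT16 and 73.6, 88.8 and 93.1 CPM at ZT0. *Agpat2*, an acyltransferase of triglyceride synthesis, peaked at ZT18.6 ± 0.37, *Acacb*, the mitochondrial acetyl-CoA carboxylase, at ZT21.6 and *Insig2*, which retains SREBP in the ER, at ZT22.1. *Scd1*, the stearoyl-CoA desaturase, was not rhythmic, and its means ran from 8868 ± 1578 CPM at ZT12 to 15060 ± 2340 CPM at ZT4.

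Of 22 PPARα target and lipid droplet genes, 9 were rhythmic, spread over 4 windows, with a median amplitude of 0.42. *G0s2*, an inhibitor of the lipase ATGL, read 218, 215 and 151 CPM at ZT16 and 11.9, 17.6 and 10.9 CPM at ZT4. *Acot3* and *Acot4*, acyl-CoA thioesterases of peroxisomes, peaked at ZT11.6 and ZT12.4, and reads of these close relatives may be shared. *Fabp1*, the liver fatty acid binding protein, was not rhythmic (adjusted p = 1 by JTK_CYCLE).

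Proteasome genes that were rhythmic mostly peaked late at night. Of 33 proteasome genes, 11 were rhythmic (33.3%, against 28.1% of the genes past the count filter), 6 of them from ZT18 to ZT22 and 3 from ZT22 to ZT2, but with small amplitudes (median 0.13 over the list). *Psmd14*, the deubiquitinase of the lid, read 46.9, 58.8 and 55.5 CPM at ZT20 and 21.1, 24.3 and 22.5 CPM at ZT12. *Nfe2l1*, the factor that drives proteasome genes, was not called rhythmic, with 166 ± 19.3 CPM at ZT12. Of the deepest rhythms from ZT18 to ZT22, *Chka*, choline kinase, read 224, 120.5 and 143 CPM at ZT20 and 15, 12.6 and 14.1 CPM at ZT8, and *Slc41a2*, a magnesium transporter, read 66.1 ± 10.2 CPM at ZT16 and 3.7 ± 0.972 CPM at ZT8. *Nat8f5* varied between mice, with 24.4, 9.5 and 45.7 CPM at ZT20. *Serpina1e*, one of several near-identical genes, read 2432, 77 and 72.4 CPM in the 3 mice at ZT0, so 1 mouse carries its high mean there.

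Some known targets of GR were rhythmic in these livers as well. Of 20 GR target genes, 10 were rhythmic (50%, against 28.1% of the genes past the count filter), 5 of them from ZT10 to ZT14, with a median amplitude of 0.57. The list includes *Per1* and *Klf9*, both rhythmic and already counted above among the core clock and clock output genes. *Tat*, tyrosine aminotransferase, read 2391, 3336 and 3082 CPM at ZT12 and 957, 551 and 400.1 CPM at ZT0. *Tsc22d3*, which encodes the glucocorticoid-induced leucine zipper, peaked later, at ZT16.6 ± 0.31, with 125, 128 and 148 CPM at ZT16 and 31.3, 27.2 and 30.5 CPM at ZT8. *Pdk4*, a pyruvate dehydrogenase kinase, peaked at ZT20.1 ± 0.61 and read 85.5 ± 3.69 CPM at ZT20 and 4.07 ± 0.525 CPM at ZT8. *Tdo2*, tryptophan dioxygenase, was not called rhythmic (adjusted p = 0.0933 by JTK_CYCLE), with its highest mean of 934 ± 41 CPM at ZT12.

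**Figure D3:**
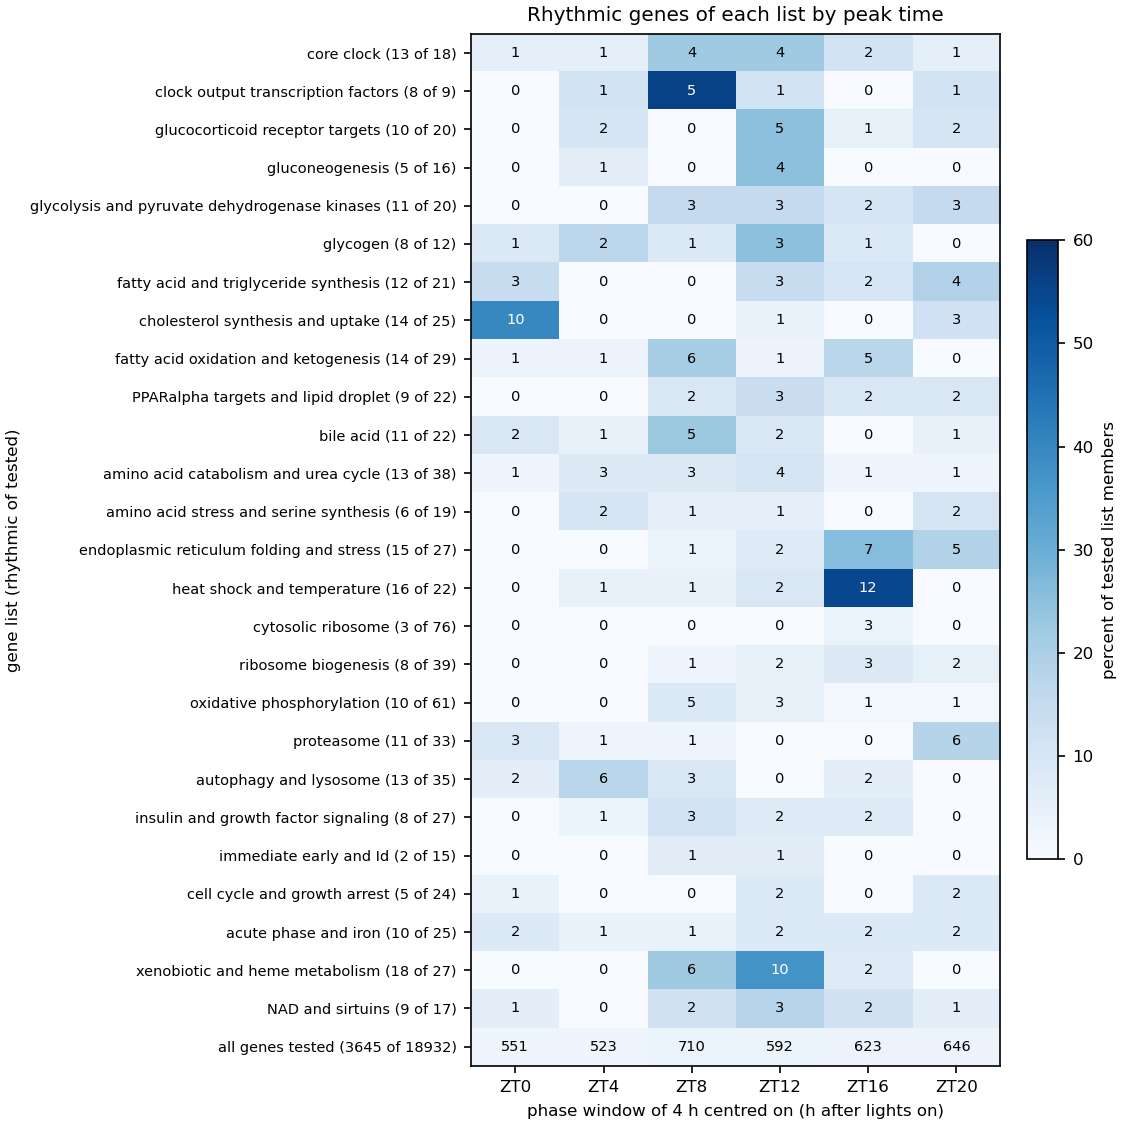
Number of rhythmic genes of each of 26 gene lists in GR LKO livers on caloric restriction by 4 h peak window (columns), shaded by the percent of tested list members, with the count of rhythmic and tested genes beside each list name. Cholesterol genes gather at ZT0, clock output factors at ZT8, xenobiotic genes at ZT12 and heat shock genes at ZT16, while all genes (last row) spread over the 6 windows.

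Many genes differed among the times without being called rhythmic. Of the 7716 genes that differed among the times by the edgeR test, 4253 (55.1%) were not called by JTK_CYCLE. The limma test of the 24 h cosine passed for 1985 of these (46.7%), and among the 4253 the time with the highest mean was most often ZT16 (1408 genes) or ZT12 (1070). The same 2 times led among the 3645 rhythmic genes (885 at ZT16 and 783 at ZT12). *Pck1*, the key enzyme of gluconeogenesis, read 5320, 6069 and 6176 CPM at ZT12, the hour of the daily meal, and 593, 431 and 809.9 CPM at ZT16. The rank test did not call it (adjusted p = 0.0933 by JTK_CYCLE, cosinor amplitude 1.38 ± 0.30), while the edgeR test did (adjusted p = 5.24e-06). *Ppp1r3c*, another glycogen-targeting subunit, was highest at ZT16, with 252, 327 and 323 CPM there and 37.5, 56.4 and 39.1 CPM at ZT12. Further examples, chosen after their values were seen, were *Igfbp1*, a binding protein for insulin-like growth factors that is raised in fasting, with a mean of 59.0 CPM at ZT20 and 2.12 at ZT16, *Asns*, asparagine synthetase, with 55.0 at ZT16 and 0.243 at ZT8, and *Angptl8*, a feeding-induced regulator of lipoprotein lipase, with 155.9 at ZT16 and 17.3 at ZT20. A count of rhythmic genes therefore leaves out many genes that differ among the times.

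At the threshold, the rank test gives few distinct p-values. *Btf3*, *Actr3* and *Chmp2a* lay just inside (adjusted p = 0.0475 by JTK_CYCLE) with amplitudes of 0.11, 0.11 and 0.10. *Gm10359*, *Gm17081* and *Mup16* lay just outside (adjusted p = 0.0599 by JTK_CYCLE) with amplitudes of 2.43, 1.28 and 0.93. *Mup16* belongs to a cluster of near-identical genes and its assignment is uncertain.

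Most rhythms were not told apart from those of WT mice on the same diet. In WT livers JTK_CYCLE called 3916 of 18651 genes (21%), and 2237 genes were rhythmic in both genotypes, 61.4% of the GR LKO set and 57.1% of the WT set. Among these 2237 the peak in GR LKO livers was later by a median of 0.30 h (quartiles -0.40 and 1.07 h), 1383 (61.8%) lay within 1 h, and median amplitudes were 0.37 in GR LKO and 0.38 in WT. A gene rhythmic in 1 genotype alone is not thereby different, so the difference itself was tested with limma as the interaction of genotype and the 24 h cosine. It passed for 100 of 13041 genes (0.767%), and 1604 had an unadjusted p under 0.05. This count rests on single livers: it was 61 without GR LKO ZT4 replicate 1, 56 and 53 without GR LKO ZT12 replicates 2 and 3, and 60, 49 and 53 without WT ZT12 replicates 1, 2 and 3. It also fell to 56 with the replicate number as a block and to 59 when every gene with a count was tested.

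The clock genes were not among the 100. Of 18 core clock genes 0 passed by limma, with 4 at an unadjusted p under 0.05 and 1 by the edgeR test of the same terms, and of 9 clock output genes 0 passed, with 1 unadjusted and 0 by edgeR. The median amplitude of the core clock list was 1.17 in GR LKO and 1.24 in WT livers, and the median difference gene by gene, GR LKO minus WT, was -0.08. For the 20 GR targets the medians were 0.57 and 0.92 and the median difference gene by gene -0.15, with 1 passing, 7 at an unadjusted p under 0.05 and 2 by edgeR. Among the core clock and clock output genes *Npas2* was closest to the threshold, with its peak at ZT22.2 in GR LKO and ZT20.9 in WT livers (limma adjusted p = 0.0794). The GR target *Tsc22d3* also missed it (limma adjusted p = 0.0705). *Per1*, a GR target, had amplitudes of 1.81 in GR LKO and 1.95 in WT livers (limma adjusted p = 0.921). Single times could still look different: at ZT12 the GR LKO livers held 39.7 ± 0.692 CPM of *Per1* (WT 92.2 ± 11.4), 6.53 ± 0.872 of *Clock* (WT 30.1 ± 10.3) and 1.84 ± 1.67 of *Arntl* (WT 10.4 ± 3.93), which was not tested. A p that misses the threshold does not show that rhythms are alike.

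Among the 100 genes, 57 had a lower and 43 a higher amplitude in GR LKO livers. Of these, 36 were rhythmic in both genotypes, 28 in GR LKO alone, 28 in WT alone and 8 in neither, and of the 36, 29 peaked later in GR LKO livers and 7 earlier, with a median difference of 2.16 h. Among those with a mean of at least 5 CPM in each genotype, the 5 largest falls in amplitude came with lower values than WT at ZT12. *Il1r1*, the interleukin-1 receptor, read 22.3, 13.2 and 18.1 CPM at ZT12 in GR LKO livers against 179 ± 15.2 CPM in WT (limma adjusted p = 0.0469). *St3gal5*, the synthase of ganglioside GM3, read 76.6, 91.7 and 71.2 CPM against 457 ± 79.7 CPM in WT and kept a rhythm of lower amplitude, 0.65 against 1.38. *Shld2*, a DNA repair subunit, and *Arhgef26*, a guanine nucleotide exchange factor, were not rhythmic in GR LKO livers, with 16.2 ± 3.21 and 22.2 ± 2.58 CPM at ZT12 against 80.2 ± 17.5 and 76.4 ± 3.58 CPM in WT. *Cdkn1a*, the cell cycle inhibitor p21, kept its rise but later: at ZT12 it read 1.85, 2.09 and 2.28 CPM in GR LKO livers against 28.7 ± 9.21 CPM in WT, and its peak moved from ZT15.9 in WT to ZT19.2. *Eif4ebp3*, a translation repressor chosen after its values were seen, had an amplitude of 0.24 in GR LKO and 1.49 in WT livers (limma adjusted p = 0.000108). Calls close to the threshold were not firm: under 40 alternatives, 36 of them leaving out 1 liver, *Il1r1* lost its call in 32, *Arhgef26* in 31 and *St3gal5* in 16, while *Shld2*, *Cdkn1a* and *Eif4ebp3* kept theirs in all 40.

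Gains in amplitude took different shapes. *Tfrc* read 91.6 ± 24.3 CPM at ZT16 in WT livers, against 192 ± 25.6 CPM in GR LKO, whereas at ZT8 the order was opposite, with 33.3 ± 10.9 and 16.9 ± 3.77 CPM. *Acot4* read 686, 857 and 794 CPM at ZT12 in GR LKO livers against 252 ± 20.4 CPM in WT, with the peak near ZT12 in both. *Acox2*, a peroxisomal oxidase that shortens bile acid side chains, *Arhgef37*, an exchange factor, and *Anxa2*, a membrane-binding annexin, gained amplitude in other ways. *Acox2* fell to 50.4 ± 4.15 CPM at ZT12 in GR LKO livers against 145 ± 7.5 CPM in WT, and *Arhgef37* to 10.2 ± 2.5 against 36.5 ± 8.39 CPM. *Anxa2* rose to 24.8 ± 4.63 CPM at ZT20 against 10.7 ± 0.383 CPM in WT. So a trough at ZT12, a peak at ZT12 or ZT16 and a peak at ZT20 each occurred. *Anxa2* lost its call in 29 of the 40 alternatives and *Acox2* in 11, while *Tfrc*, *Acot4* and *Arhgef37* kept theirs.

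Among the 36 genes that passed the limma test and were rhythmic in both genotypes, the largest shifts in time were later peaks in GR LKO livers. *Megf9*, a membrane protein, peaked at ZT20.4 against ZT13.1 in WT, and *Urad*, an enzyme of urate breakdown, at ZT22.4 against ZT17.3. *As3mt*, an arsenic methyltransferase, peaked at ZT22.3 against ZT17.5. *Megf9* read 22 ± 0.932 CPM at ZT12 in GR LKO livers against 55.7 ± 8.67 CPM in WT. The ribosomal pseudogenes *Rpl27-ps3* and *Gm10288* also peaked later, by 6.97 and 5.77 h, but they share sequence with their parent genes and are uncertain. *As3mt* lost its call in 20 of the 40 alternatives and *Urad* in 7, and *Megf9* kept it. The phase of *Nampt*, which lost its call in 2, differed by 1.58 h at nearly equal amplitudes (1.02 in GR LKO, 1.06 in WT).

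**Figure D4:**
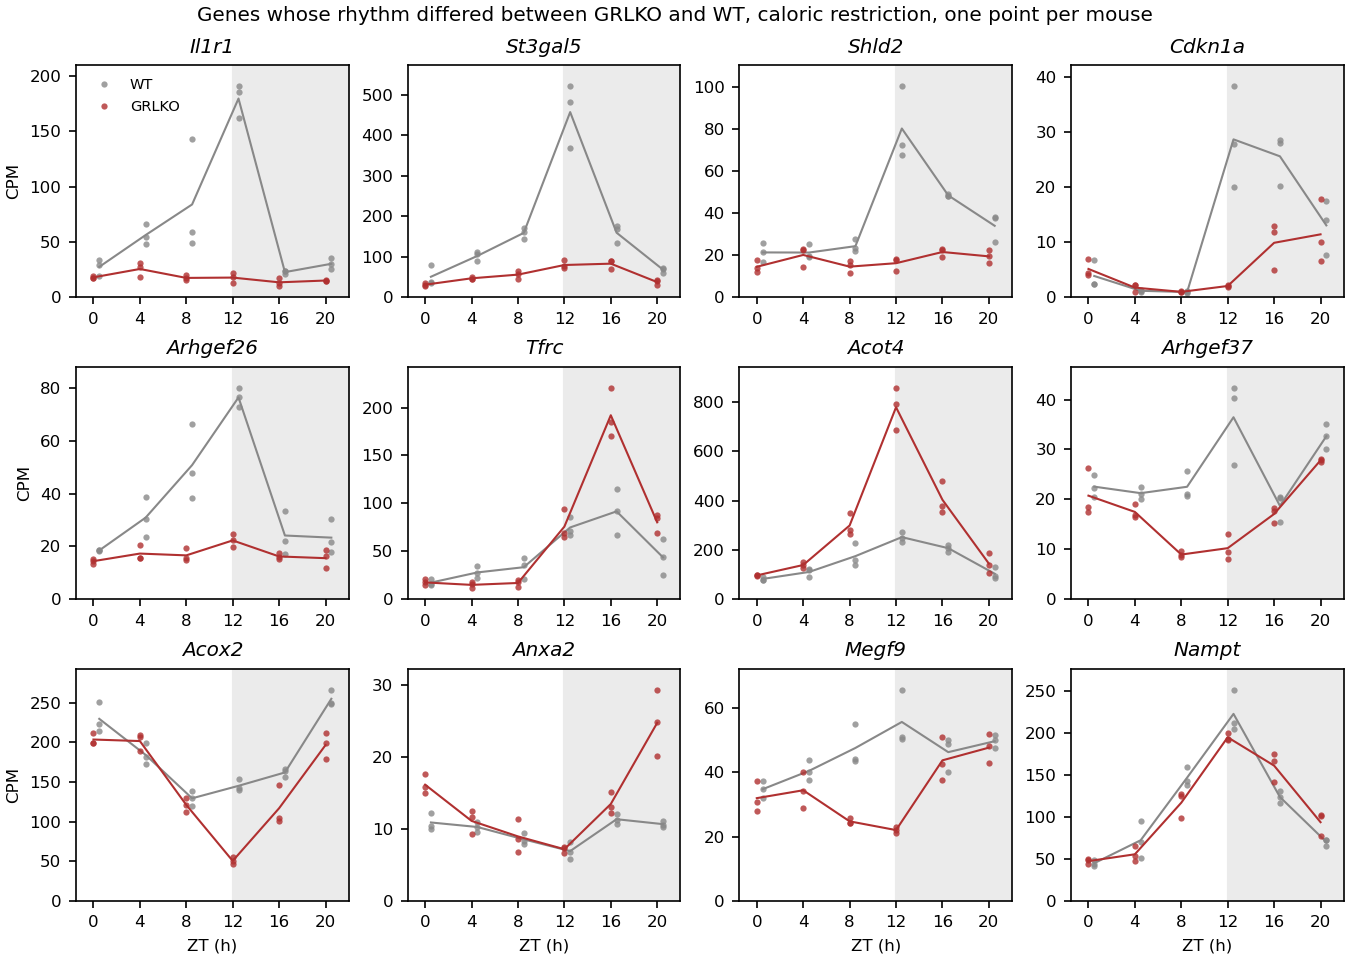
CPM of 12 genes whose rhythm differed between genotypes by limma, in GR LKO (red) and WT (grey, drawn 0.5 h to the right) livers on caloric restriction against ZT in hours (points, single mice; lines, means of 3 mice; shading, dark phase). *Il1r1*, *St3gal5*, *Shld2* and *Arhgef26* are lower than in WT at ZT12, and *Tfrc* and *Acot4* rise higher than in WT.

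Within GR LKO mice the rhythm also differed by diet. In GR LKO ctrl. livers JTK_CYCLE called 3936 of 18705 genes (21%), and 1981 genes were rhythmic on both diets, 54.3% of the caloric restriction set and 50.3% of the ctrl. set. The limma test of diet and the 24 h cosine passed for 2528 of 13057 genes (19.4%), and 4380 had an unadjusted p under 0.05. Of the 2528, the amplitude was larger on caloric restriction in 1784 and smaller in 736. Of the 894 that were rhythmic on both diets, 867 peaked earlier on caloric restriction and 27 later, and the median difference was -3.18 h. Over all 1981 genes rhythmic on both diets it was -2.13 h (quartiles -3.14 and -1.05 h), and 384 (19.4%) lay within 1 h. Diet coincides with the series of libraries, so a difference from diet and one from the library series cannot be told apart, and levels were not compared.

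The earlier phase included the clock. Of 18 core clock genes, 13 passed the limma test, 12 of them with an earlier peak on caloric restriction, as did 5 of 9 clock output genes, all 5 earlier. *Cry1* peaked at ZT17.4 on caloric restriction and ZT20 on ctrl. (limma adjusted p = 1.52e-05), and *Dbp* at ZT7.99 and ZT10.7 (limma adjusted p = 8.32e-06). *Per2* differed by -2.78 h, *Arntl* by -2.24 h and *Nr1d1* by -1.87 h. The median amplitude of the core clock list was 1.14 on caloric restriction and 1.23 on ctrl. in this fit.

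The heat shock list differed as well, with 12 of 22 genes passing, all 12 earlier and 11 larger in amplitude on caloric restriction. *Hspa8* had an amplitude of 1.42 on caloric restriction and 0.70 on ctrl. (limma adjusted p = 0.0416, lost in 16 of 42 alternatives), and its peak differed by -1.99 h. *Tfrc* had an amplitude larger by 0.71 than on ctrl., with a peak at ZT16.1 against ZT18.6. The peaks of *Slc2a2* and *Fga* differed from ctrl. by -1.81 and -3.05 h. Among 25 cholesterol genes 4 passed, and *Hmgcs1*, at ZT23.7 and ZT0.91, did not (limma adjusted p = 0.218). Of 15 immediate early and Id genes 0 passed by limma, with 5 at an unadjusted p under 0.05 and 1 by edgeR.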

How the data were processed

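Liver RNA was sequenced from single mice (TruSeq v2 kit, unstranded, poly(A) RNA), and the authors quantified reads with Salmon and summed transcripts to genes, giving the deposited expected counts (estimated counts per gene, not normalised); the labels name build mm10 and give no tool versions. Of 27654 gene identifiers, 27244 matched a symbol, and the other 410 held 0.113% of counts. In R 4.3.3, counts were rounded and transformed with the blind VST of DESeq2 1.42.0 over the 36 caloric restriction libraries. JTK_CYCLE (period 24 h, 6 offsets, exact null allowing for ties in the reference cosine, two-sided p, Bonferroni over offsets, Benjamini-Hochberg over genes) was written after the published algorithm and tested on simulated data. Cosinor fits and rhythm differences used limma 3.58.1, and the test among times edgeR 4.0.16 (minimum count 10). Members and lists were chosen with earlier results of these data known. Named genes were *Nr3c1*, all clock and clock output genes, for other lists up to 4 rhythmic members of largest amplitude (mean at least 5 CPM) and the most abundant non-rhythmic one, the 5 largest amplitudes per window, 5 falls, 5 gains and 5 shifts against WT, and 3 genes on each side of the threshold; other names are list members or are said to be chosen later. Some of the genes so chosen are not reported here. No 2 of the 18 replicate pairs were identical. Alternatives covered transformation, filter, amplitude minimum, test, replicate number and leaving out each library.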

Additional observations from a re-analysis of the deposited data

Results flagged for a closer look

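The rhythm differed between GR LKO and WT livers on caloric restriction for 100 genes, and between caloric restriction and ctrl. in GR LKO livers for 2528 genes, by the limma test of the difference itself. Leaving out 1 liver (WT ZT12 replicate 2) gave 49 genes against WT. Each named gene below passed the test against WT. Limma adjusted p-values were 0.00767 for *Cdkn1a*, with a lower amplitude and a later peak in GR LKO livers, and 0.00767 for *Tfrc*, with a larger amplitude. Lower amplitudes were also found for *Shld2* (limma adjusted p = 0.0216), *St3gal5* (0.0378), *Arhgef26* (0.0463) and *Il1r1* (0.0469). Larger amplitudes were found for *Acot4* (limma adjusted p = 0.0176), *Arhgef37* (0.0216), *Acox2* (0.035) and *Anxa2* (0.0463). The peak was later in GR LKO livers for *Megf9* (limma adjusted p = 0.0154), *Urad* (0.0289), *Nampt* (0.0289) and *As3mt* (0.0386), and for the pseudogenes *Rpl27-ps3* (0.00362) and *Gm10288* (0.014), whose read assignment is uncertain. The calls of *Cdkn1a*, *Tfrc*, *Shld2*, *Acot4*, *Arhgef37*, *Megf9* and both pseudogenes held in all 40 alternatives, while those of *Il1r1*, *Arhgef26*, *Anxa2*, *As3mt*, *St3gal5*, *Acox2*, *Urad* and *Nampt* were lost in 32, 31, 29, 20, 16, 11, 7 and 2 of them.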

How the results depend on the processing

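The dark-phase share, the median amplitude and the count against ctrl. kept within their limits under most alternatives. The number of rhythmic genes became 677 with an amplitude minimum of 0.5, 6105, 6782 and 6159 when the edgeR F, DESeq2 likelihood ratio and limma F tests of the 24 h cosine replaced JTK_CYCLE, and 7716 with the edgeR test for any difference among times. A stricter minimum leaves fewer genes by construction, and the cause of the other changes was not tested. The limma test called 3606 (98.9%) of the 3645 genes. JTK_CYCLE with a null that ignores ties called 2999 genes, all of them among the 3645 (82.3%). The dark-phase share, 50.6%, became 48.2% on log2 CPM, 57.3% at the higher minimum, 52.6% with edgeR and 52.2% with DESeq2, and the median amplitude 0.43 on log2 CPM and on log2 size-factor scaled counts, 0.74 at the higher minimum and 0.28 with DESeq2. Genes that differed from WT became 59 with every gene that had a count tested. The replicate number as a block gave 3918 rhythmic genes, 51.1%, 0.33, and 56 and 2077 genes for the differences from WT and ctrl., and 45 correlations between GR LKO mice of the same number at different times (median 0.005, 2 over 0.1) gave no sign that the numbers pair these mice. Pairing with WT or ctrl. mice was not tested. Leaving out 1 library at a time gave 2844 to 3637 rhythmic genes, 49.8% to 51.8% in the dark phase (49.8% without ZT0 replicate 3 and 49.9% without ZT4 replicate 2, so which phase holds more peaks is not settled), median amplitudes of 0.35 to 0.37, 49 to 124 genes differing from WT and 2100 to 2777 from ctrl. Without GR LKO ZT4 replicate 1 the count against WT was 61, without ZT12 replicates 2 and 3 it was 56 and 53, and without WT ZT12 replicates 1, 2 and 3 it was 60, 49 and 53. For the call of a rhythm in GR LKO livers, over the 176 genes chosen for naming, 4756 of 5278 alternative values kept it, 400 lost it and 122 gained it, with 0 reversed. Of 17 named genes that differed from WT, 9 kept that call in all 40 alternatives, and 148 of the 680 values lost it. Of 93 that differed from ctrl., 76 kept it in all, and 209 of 3906 values lost it. In both, 0 reversed. A single day, 6 times and 3 mice per time limit the precision of peak times and leave sharp peaks to the test among times.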
